A study of Mus musculus with 7 samples.

Results

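A set of 40 genes of drug and xenobiotic metabolism was followed in the livers of obese mice with and without bitter melon juice. The members were set by a list of 40 Ensembl gene IDs with their symbols, and the deposited table holds 33426 IDs. No cutoff on measured values decided membership, but the list was chosen with earlier results of these data known. Shares of all IDs given beside its counts are therefore a description and not a test of the list. Of the 40, 36 have a row in the table. Values of Cyp2a4, Cyp2a5, Cyp3a41a and Gsta1 were not analysed here, though their upstream sequences are among those counted below. RNA came from the liver of 7 male wild-type C57BL/6J mice, an inbred strain that becomes obese on fatty food. Every mouse ate a diet with 60% of its energy as fat from 4 weeks of age until 16 weeks, which produced diet-induced obesity (DIO), and then for another 40 days. The DIO group (3 mice) had the diet alone. The BMJ + DIO group (4 mice) was also given lyophilized bitter melon juice (BMJ, from Momordica charantia) by daily oral gavage at 200 mg per kg body weight for those 40 days. The labels describe no gavage for the DIO group, so the juice and the gavage cannot be told apart, and they put the age at 16 weeks although feeding ran 40 days longer. Both groups were obese, and no lean mice were analysed here. Whole liver was used, in which fewer cells of a type and less RNA per cell cannot be told apart. The table names no IDs beyond the member list, so general liver and blood cell markers were not checked.

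The liver clears drugs, plant compounds and steroids in steps. Cytochrome P450 enzymes (CYPs) oxidise a compound with electrons that P450 oxidoreductase (POR) passes on from NADPH, hydrolases and oxidases act on others, and transferases then attach glutathione or sulfate so that the product can leave the cell. Much of this capacity is set by ligand-activated transcription factors: the pregnane X receptor (PXR, gene Nr1i2) and the constitutive androstane receptor (CAR, gene Nr1i3) drive Cyp3a, Cyp2b and Cyp2c genes, and the aryl hydrocarbon receptor (Ahr) drives Cyp1a genes. In mouse liver several of these enzymes also differ strongly between the sexes.

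Each value is a log2 expression level from robust multi-array average (RMA) processing of Affymetrix arrays, 1 per gene and animal. Differences below are BMJ + DIO minus DIO on that log2 scale. They were tested with limma, a moderated linear model, over the 20055 IDs left after the dimmest 40% were removed, with Benjamini-Hochberg adjustment over all of them. Of the 36 members in the table, 30 were tested, and Cyp1a1, Cyp2b13, Cyp2c55, Cyp3a16, Gsta2 and Sult1e1 fell below the filter. One control array stood apart. DIO replicate 3 had a mean correlation of 0.924 with the other 6 arrays, whose own means ran from 0.964 to 0.969, and it read low for bright IDs: among the 1489 IDs with a mean log2 level of 7 or more it was the lowest array for 83.5%. Results are therefore also given without that animal and after cyclic loess, which evens out differences between arrays that follow brightness. Labels call the samples biological replicates, and 3 and 4 arrays limit the precision of each comparison.

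No member passed an adjusted p of 0.05, nor did any of the 20055 IDs (0%). The members nearest to it had an adjusted p of 0.571. At an unadjusted p under 0.05 there were 6 of 30 members, against 6.41% of all IDs tested, and each of the 6 was higher in BMJ + DIO, a direction that 3.63% of all IDs tested took at that threshold (2.78% took the other). They were Por, Cyp3a13, Nr1i3, Ces2a, Nr1i2 and Sult1d1. Of these 6, 5 differed by at least 1.5-fold, against 1.71% of all IDs. Without DIO replicate 1 the count was 12, where 29.0% of all IDs passed the same threshold, and Cyp2c39, Cyp2c50, Cyp2c54, Cyp2e1, Cyp3a25 and Fmo5 joined them. Without BMJ + DIO replicate 3 it was 3, namely Por, Nr1i3 and Cyp3a13, beside 2.76% of all IDs. In 4 members, Nr1i2, Nr1i3, Por and Cyp3a13, the 4 treated livers all lay above the 3 control livers, against 3.52% of IDs without overlap in either direction, 1.84% with BMJ + DIO above and 1.68% with it below. Means were higher in BMJ + DIO for 25 of 30 members, against 56.3% of all IDs tested and 85.0% of the 1489 bright IDs. Of the 30 members 23 are bright by that measure, so the count of 25 is near that background. Of those bright IDs 9.60% had an unadjusted p under 0.05 and 5.91% had groups without overlap.

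The upstream sequences of the 4 members without overlap are shown so that the regulatory stretch next to each start can be read beside its values. Each is the 250 bases before a RefSeq transcript start, from RefSeq on GRCm38.p6, written 5′ to 3′ on the gene's strand. For Por and Cyp3a13 that start lies 19105 and 3991 bases inside the full RefSeq span of the gene, so these windows precede a start within the gene. For Nr1i2 and Nr1i3 it lies 25 and 36 bases inside. Capitals mark GCGTG, the core of the element that Ahr binds, and AGTTCA or AGGTCA, hexamers of the kind that nuclear receptors bind, on either strand. The windows are chr16:38294825-38295074 (minus strand) for Nr1i2, chr1:171213720-171213969 (plus strand) for Nr1i3, chr5:135688895-135689144 (plus strand) for Por and chr5:137921620-137921869 (minus strand) for Cyp3a13.
Nr1i2: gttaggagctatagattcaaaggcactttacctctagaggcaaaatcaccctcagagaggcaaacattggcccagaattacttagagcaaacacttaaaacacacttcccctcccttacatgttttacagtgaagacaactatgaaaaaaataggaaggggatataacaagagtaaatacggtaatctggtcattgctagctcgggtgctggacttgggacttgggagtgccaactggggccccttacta
Nr1i3: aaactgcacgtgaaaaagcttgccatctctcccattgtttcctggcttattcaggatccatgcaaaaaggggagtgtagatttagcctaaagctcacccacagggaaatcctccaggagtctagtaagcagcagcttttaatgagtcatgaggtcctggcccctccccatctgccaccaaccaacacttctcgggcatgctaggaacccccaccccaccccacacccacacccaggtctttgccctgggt
Por: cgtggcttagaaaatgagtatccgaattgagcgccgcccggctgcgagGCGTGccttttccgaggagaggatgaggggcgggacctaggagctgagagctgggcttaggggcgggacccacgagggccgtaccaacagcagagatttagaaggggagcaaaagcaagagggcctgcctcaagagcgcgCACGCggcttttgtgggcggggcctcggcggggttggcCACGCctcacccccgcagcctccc
Cyp3a13: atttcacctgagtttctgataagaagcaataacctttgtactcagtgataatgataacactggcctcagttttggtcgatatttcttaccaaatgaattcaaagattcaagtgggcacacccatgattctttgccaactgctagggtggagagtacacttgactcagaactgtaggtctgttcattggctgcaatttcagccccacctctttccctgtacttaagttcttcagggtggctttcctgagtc
The Por window holds GCGTG 3 times, starting 202, 62 and 24 bases before the start, the last 2 on the other strand. None of the searched words is in the Nr1i2, Nr1i3 or Cyp3a13 window. These words are common: over 32851 windows of the same length, GCGTG is in 28.2%, AGGTCA in 14.0% and AGTTCA in 11.8%. For 38 of the 40 members 42 windows were matched (Ahr and Cyp2c54 were not matched). Of the 42 windows, 8 hold GCGTG, 11 hold AGGTCA and 5 hold AGTTCA, in 7, 10 and 5 genes. A word for a different purpose, TATAAA, the core of the TATA box, is in 17 of the 42 member windows against 12.4% of all windows. It was sought anywhere in the 250 bases on either strand, so a match need not be a TATA box. By gene, it is in 4 of 7 Cyp3a, 3 of 6 Cyp2c, both Cyp1a and both Cyp2a genes, and in Cyp2e1. It is also in 3 of the 6 remaining oxidising and hydrolysing enzymes (Por included) and in 2 of 7 glutathione transferases. It is in 0 of 3 Cyp2b genes, in neither sulfotransferase and in neither receptor gene with a window. Many members are paralogs, so their windows are not independent cases. A match is a description of the letters and not a binding site.

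Of the 3 receptors, Nr1i2 and Nr1i3 had treated values above all controls and Ahr did not, and none passed the adjusted threshold. The receptors were not tested against each other. Nr1i2 (ENSMUSG00000022809, chr16:38248349-38294849), which encodes PXR, a sensor of drugs and bile acids, read 7.69, 7.46 and 6.71 in DIO replicates 1 to 3. In BMJ + DIO replicates 1 to 4 it read 7.79, 7.91, 8.18 and 8.10. All treated livers lay above all controls, though DIO replicate 1 was only just below the lowest treated liver. The means were 7.29 ± 0.51 (SD, n = 3) and 7.99 ± 0.18 (SD, n = 4). The difference was 0.71 (1.64-fold, limma standard error 0.25, 95% interval 0.10 to 1.31, unadjusted p = 0.0284, adjusted p = 0.571). Without DIO replicate 3 it was 0.42 (limma, unadjusted p = 0.0317), and after cyclic loess 0.47 (limma, unadjusted p = 0.00235). Leaving out BMJ + DIO replicate 2, 3 or 4 gave limma unadjusted p of 0.0511, 0.0702 and 0.0659.

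Nr1i3 (ENSMUSG00000005677, chr1:171213934-171218845) encodes CAR, which answers phenobarbital-like inducers. It read 7.21, 6.62 and 6.86 in the controls and 7.36, 7.59, 8.11 and 7.36 in the treated livers. The groups did not overlap, and here DIO replicate 2, not replicate 3, was the lowest animal. Group means were 6.90 ± 0.29 (SD, n = 3) and 7.60 ± 0.35 (SD, n = 4), a 1.63-fold difference. On the log2 scale that was 0.71 (limma standard error 0.23, interval 0.14 to 1.27, unadjusted p = 0.0225, adjusted p = 0.571). It was 0.69 without DIO replicate 3 (limma, unadjusted p = 0.0675) and 0.57 without DIO replicate 2 (limma, unadjusted p = 0.0794). After cyclic loess it was 0.47 (limma, unadjusted p = 0.0693) and the groups overlapped.

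Ahr (ENSMUSG00000019256, chr12:35497979-35534989), the dioxin receptor, read 7.22, 6.83 and 6.33 in the controls and 6.75, 6.62, 7.11 and 7.00 with the juice. The groups were intermixed, with the highest and the lowest value both in DIO. The difference was 0.08 with an interval of -0.49 to 0.65 (limma, adjusted p = 0.876). Its sign turned to -0.16 without DIO replicate 3 and to -0.14 after cyclic loess. Its target Cyp1a2, which oxidises caffeine and aromatic amines, read 8.29, 8.06 and 7.57 in DIO and 7.998, 8.56, 8.37 and 8.42 in BMJ + DIO. The lowest treated liver lay between the first and the last control, and the difference of 0.36 (interval -0.15 to 0.87) had a limma adjusted p of 0.571. Cyp1a1, the most inducible Ahr target, was below the filter, at 2.03 in each of 3 controls and between 1.82 and 2.04 in the treated livers.

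Por, the electron donor of all microsomal P450 enzymes, had the smallest p of the members. Por (ENSMUSG00000005514, chr5:135670040-135735326) read 7.24, 7.31 and 7.20 in DIO and 7.88, 7.64, 8.30 and 8.03 in BMJ + DIO. The 3 controls were close together, DIO replicate 3 included, and every treated liver was above them. The means were 7.25 ± 0.06 (SD, n = 3) and 7.96 ± 0.28 (SD, n = 4). The 1.64-fold difference corresponds to 0.71 on the log2 scale (limma standard error 0.15, interval 0.34 to 1.09, unadjusted p = 0.00356, adjusted p = 0.571). It was 0.69 without DIO replicate 3 (limma, unadjusted p = 0.0168) and 0.47 after cyclic loess (limma, unadjusted p = 0.0425), where the groups overlapped.

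**Figure D1:**
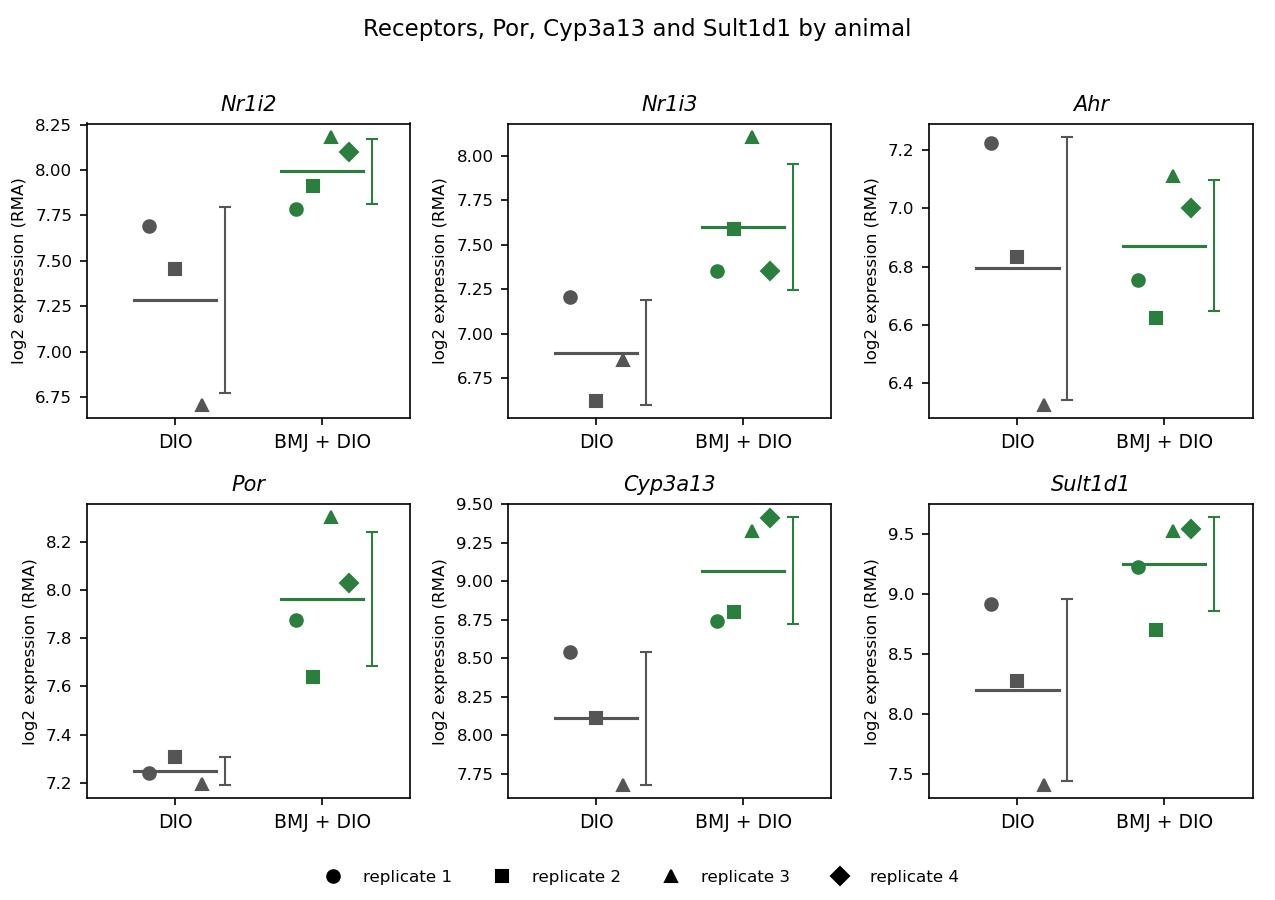
Log2 expression (RMA) of 6 genes in each animal, DIO in grey and BMJ + DIO in green, with marker shape giving the replicate, horizontal lines the group means and bars 1 SD on each side. Nr1i2, Nr1i3, Por and Cyp3a13 show 4 treated values above 3 control values, Sult1d1 overlaps in 1 treated animal, and Ahr is intermixed (vertical axes differ and do not start at 0).

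Among the Cyp3a enzymes, steroid and drug hydroxylases that PXR controls, 4 of the 5 tested had a higher mean in BMJ + DIO. The share was 56.3% of all IDs tested and 85.0% of the bright IDs. Without DIO replicate 3, 3 of the 5 were higher. On all animals 1 reached an unadjusted p under 0.05. That gene was Cyp3a13 (ENSMUSG00000029727, chr5:137892933-137925610), which lies apart from the other 6 Cyp3a members, found between 145436309 and 146114978 on the same chromosome. It read 8.54, 8.11 and 7.68 in the controls and 8.74, 8.80, 9.33 and 9.41 in the treated livers. The treated animals formed a lower and a higher pair, both above the controls. The difference was 0.96 (1.94-fold, limma standard error 0.27, interval 0.30 to 1.61, unadjusted p = 0.0115, adjusted p = 0.571). It was 0.74 without DIO replicate 3 (limma, unadjusted p = 0.0401) and 0.70 after cyclic loess (limma, unadjusted p = 0.00320).

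Cyp3a11, the main drug-metabolising Cyp3a enzyme of mouse liver and the usual readout of PXR activity, did not separate. In every animal its signal was below those of Cyp3a13 and Cyp3a25. Signals of near-identical Cyp3a paralogs cannot be told apart with certainty here, and PXR activity was not tested. Cyp3a11 read 6.39, 5.92 and 4.63 in DIO and 6.19, 6.20, 6.59 and 5.96 in BMJ + DIO. DIO replicate 1 lay above 3 of the 4 treated livers. The difference was 0.59 (interval -0.45 to 1.63, limma adjusted p = 0.575), and 0.08 without DIO replicate 3. Cyp3a25 and Cyp3a59 had differences of 0.46 each, which became 0.03 and -0.24 without that animal. Cyp3a44, a form that predominates in female mice, had a difference of -0.11 (interval -0.62 to 0.40, limma adjusted p = 0.796), which was -0.36 without DIO replicate 2 (limma, unadjusted p = 0.0139) and 0.09 without DIO replicate 1. Cyp3a16, known as a fetal form, was below the filter with values from 0.88 to 1.22.

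The Cyp2b family, the classic targets of CAR, held the member with the widest range over the 7 mice, Cyp2b9, and the groups overlapped in all 3 of its genes. Cyp2b10, the standard CAR-induced enzyme, read 6.12, 6.57 and 4.75 in DIO and 7.56, 6.57, 7.57 and 6.24 in BMJ + DIO. Only treated replicates 1 and 3 stood above every control. The means were 5.81 ± 0.95 (SD, n = 3) and 6.99 ± 0.69 (SD, n = 4), 2.25-fold apart. The difference of 1.17 had an interval of -0.19 to 2.54 (limma, unadjusted p = 0.0801, adjusted p = 0.571). It became 0.64 without DIO replicate 3 (limma, unadjusted p = 0.247). Without DIO replicate 2 it was 1.55 (limma, unadjusted p = 0.0487). Cyp2b9, a testosterone hydroxylase that predominates in female mice, read 10.80, 10.80 and 6.31 in the controls and 11.01, 8.23, 10.77 and 9.33 in the treated livers. That is a 26.0-fold range over 7 mice, with low animals in both groups. Its difference of 0.53 (interval -2.74 to 3.80, limma adjusted p = 0.848) turned to -0.97 without DIO replicate 3. Cyp2b13, also a female-predominant form, was below the filter and was not tested, with values of 2.44, 3.50 and 1.29 in DIO and 2.62, 1.59, 1.80 and 1.26 in BMJ + DIO. DIO replicate 3 was the lowest animal for Cyp2b9 and Cyp2b10, and for Cyp2b13 it was second lowest, next to BMJ + DIO replicate 4. BMJ + DIO replicates 2 and 4 were below replicates 1 and 3 of their group for Cyp2b9, Cyp2b10 and Cyp2b13.

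The Cyp2b genes lie in 1 cluster on chromosome 7, Cyp2b10 at 25897658-25926624, Cyp2b13 at 26061388-26096197 and Cyp2b9 at 26173350-26210661. The 250 bases before the starts of the pair with tested values are shown because Cyp2b9 has the widest range of the members and Cyp2b10 is the standard target of CAR (chr7:26173159-26173408 and chr7:25897408-25897657, both plus strand, capitals as above).
Cyp2b9: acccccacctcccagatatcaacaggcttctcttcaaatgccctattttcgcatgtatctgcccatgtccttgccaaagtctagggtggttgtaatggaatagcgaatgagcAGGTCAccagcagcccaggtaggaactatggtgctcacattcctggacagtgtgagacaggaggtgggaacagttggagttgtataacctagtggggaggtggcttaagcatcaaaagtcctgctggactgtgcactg
Cyp2b10: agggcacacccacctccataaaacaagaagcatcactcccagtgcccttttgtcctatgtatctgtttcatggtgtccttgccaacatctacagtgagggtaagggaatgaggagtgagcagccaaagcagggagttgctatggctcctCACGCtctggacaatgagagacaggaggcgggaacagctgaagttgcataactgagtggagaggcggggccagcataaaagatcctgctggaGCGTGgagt
Cyp2b9 has AGGTCA once, starting 138 bases before the start. Cyp2b10 has GCGTG at 101 bases before the start on the other strand and at 9 bases on its own. The phenobarbital-responsive enhancer of Cyp2b10, through which CAR is known to act, lies farther upstream and is outside this window.

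The Cyp2c enzymes hydroxylate drugs and make epoxides of arachidonic acid. Means were higher with the juice in 6 of 6 tested members, beside 56.3% of all IDs tested and 85.0% of the bright IDs. Without DIO replicate 3, and also after cyclic loess, 4 of the 6 were higher. None reached an unadjusted p under 0.05 on all animals. The 7 Cyp2c genes lie together on chromosome 19 between 39006940 and 40113955. The median difference of the tested members was 0.64, and 0.09 without DIO replicate 3. The best separated was Cyp2c50, which read 9.32, 8.39 and 7.67 in DIO and 8.99, 9.22, 9.45 and 9.27 in BMJ + DIO. DIO replicate 1 lay among the treated livers and the other 2 controls lay below them, a difference of 0.77 (interval -0.16 to 1.70, limma adjusted p = 0.571). It was 1.20 without DIO replicate 1 (limma, unadjusted p = 0.00396) and 0.37 without DIO replicate 3.

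The differences of Cyp2c38 and Cyp2c39 moved most within the Cyp2c family when DIO replicate 3 was left out. Cyp2c38 read 9.64, 8.64 and 6.60 in DIO and 9.11, 8.28, 9.52 and 9.04 in BMJ + DIO. Cyp2c39 read 6.57, 5.54 and 3.85 in DIO and 6.11, 5.63, 6.73 and 6.07 in BMJ + DIO. In both genes DIO replicate 3 was far below all others, and differences of 0.69 and 0.81 fell to -0.15 and 0.08 without it. Cyp2c54 had a difference of 0.58, which was 0.92 without DIO replicate 1 (limma, unadjusted p = 0.0309). Cyp2c37 had one of 0.15, which was 0.03 without BMJ + DIO replicate 3. Cyp2c29, an abundant CAR-responsive form, read 10.69, 10.15 and 9.95 in the controls and 10.35, 9.99, 10.63 and 10.35 in the treated livers. The groups covered the same range, with a difference of 0.07 (interval -0.47 to 0.61, limma adjusted p = 0.887) that was -0.09 without DIO replicate 3. Cyp2c55, best known from the intestine and from induced liver, was below the filter with 2.09 to 2.83.

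Cyp2e1, which oxidises ethanol, acetone and paracetamol, read 11.92, 11.60 and 11.21 in DIO and 11.82, 12.14, 11.99 and 11.95 in BMJ + DIO. The lowest treated liver was below DIO replicate 1 and above the other controls. The difference was 0.40 (interval -0.03 to 0.83, limma adjusted p = 0.571), 0.22 without DIO replicate 3 and 0.12 after cyclic loess.

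The remaining oxidising and hydrolysing enzymes besides Por were higher in mean in 5 of 5 cases, by small amounts. Of all IDs tested 56.3% were higher, and of the bright IDs 85.0%. Ces2a, a carboxylesterase that splits ester drugs and acylglycerols, read 5.50, 4.997 and 5.003 in DIO and 5.55, 5.59, 5.69 and 5.50 in BMJ + DIO. DIO replicate 1 and BMJ + DIO replicate 4 carried an identical value, so the groups touched. The difference was 0.42 (1.33-fold, limma standard error 0.14, interval 0.08 to 0.75, unadjusted p = 0.0227, adjusted p = 0.571), 0.34 without DIO replicate 3 (limma, unadjusted p = 0.0805). Leaving out DIO replicate 2 or BMJ + DIO replicate 3 gave limma unadjusted p of 0.0797 and 0.0579. Fmo5, a flavin monooxygenase, had a difference of 0.41 (interval -0.02 to 0.84, limma unadjusted p = 0.0563), which was 0.13 after cyclic loess. Ephx1, the microsomal epoxide hydrolase, differed by 0.22, Aldh1a1, which makes retinoic acid, by 0.13, and its paralog Aldh1a7 by 0.09. Without DIO replicate 3 these were -0.09, -0.03 and -0.18, and the limma adjusted p on all animals ran from 0.636 to 0.846.

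**Figure D2:**
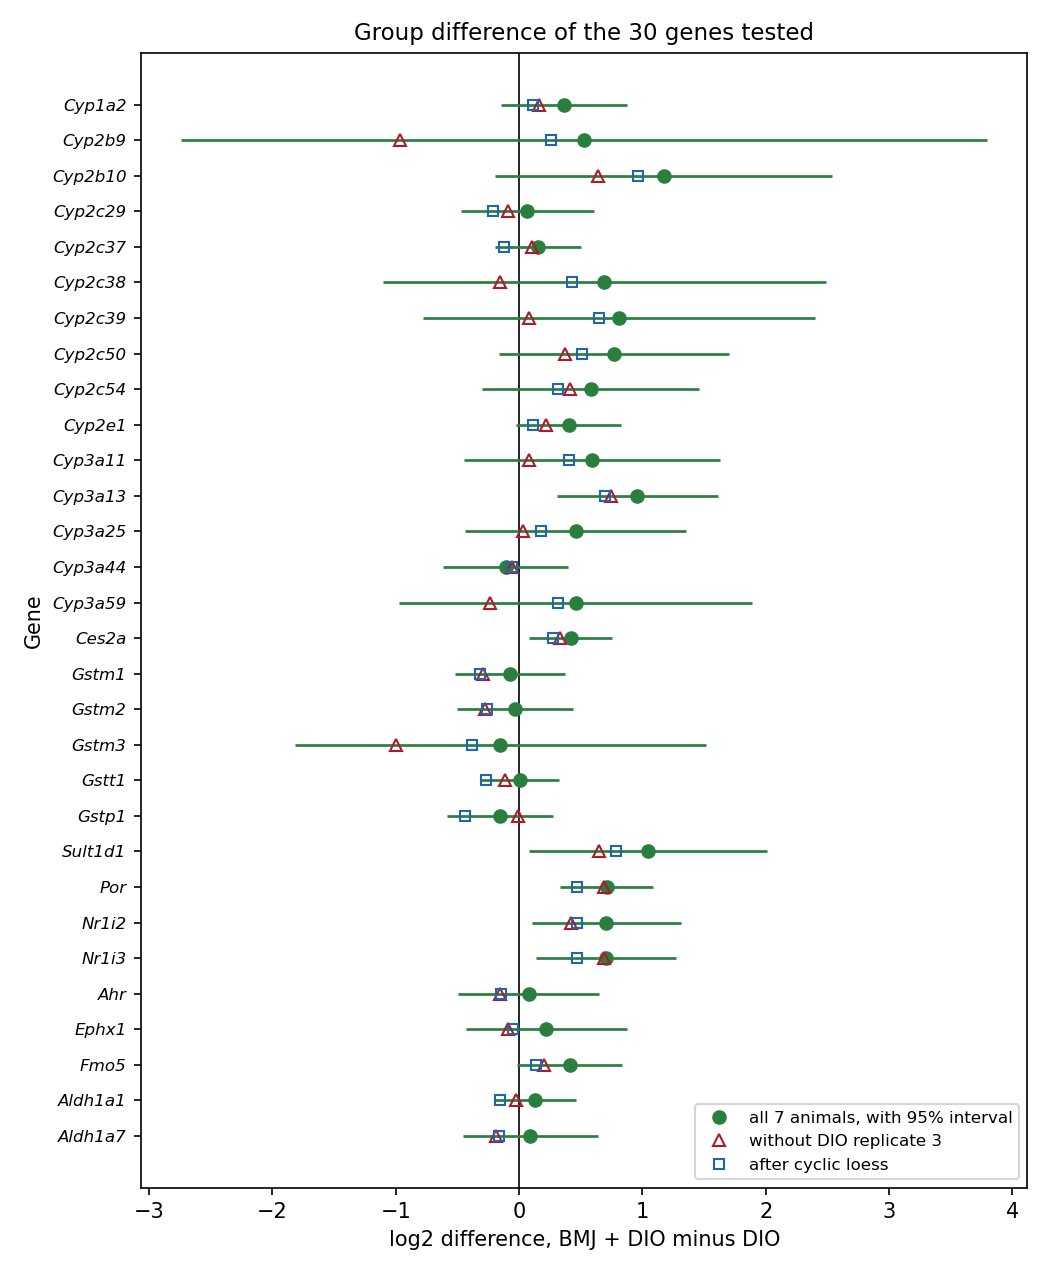
Log2 difference (BMJ + DIO minus DIO) of the 30 tested genes with the 95% interval from limma, beside the difference without DIO replicate 3 (triangles) and after cyclic loess (squares). Most intervals include 0, and those of Por, Cyp3a13, Nr1i2, Nr1i3, Ces2a and Sult1d1 lie above it. Triangles lie to the left of the filled points for every gene except Cyp3a44 and Gstp1.

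The glutathione transferases, which couple reactive compounds to glutathione, had similar means in both groups, and none reached an unadjusted p under 0.05 on all animals. Of 5 tested, 1 had a higher mean in BMJ + DIO and 4 a lower one, with a median difference of -0.07 on all animals. Gstm1 read 7.86, 7.79 and 7.16 in DIO and 7.61, 7.57, 7.59 and 7.37 in BMJ + DIO. The treated livers lay below 2 controls and above the third, DIO replicate 3. The difference was -0.07 (interval -0.52 to 0.37, limma adjusted p = 0.844), and -0.29 without that animal (limma, unadjusted p = 0.0157, adjusted p = 0.858). Gstm2 read 7.51, 7.40 and 6.72 in DIO and 7.14, 7.24, 7.23 and 7.13 in BMJ + DIO. Gstm3 read 8.37, 7.88 and 5.58 in DIO and 7.20, 7.58, 6.93 and 6.81 in BMJ + DIO. Both had the same arrangement as Gstm1. The Gstm2 difference was -0.03 on all animals and -0.27 without DIO replicate 3 (limma, unadjusted p = 0.00436, adjusted p = 0.858). The Gstm3 difference was -0.15 and then -1.0 (limma, unadjusted p = 0.0148, adjusted p = 0.858). Without DIO replicate 3, 5 of 5 tested transferases had a lower mean with the juice, as they did after cyclic loess, where Gstm1, Gstm2 and Gstt1 had unadjusted p of 0.0167, 0.0131 and 0.0472 in limma. Of all IDs tested, 3.25% had an unadjusted p under 0.05 without the animal and 8.98% after cyclic loess. A higher mean in BMJ + DIO was found for 9501 of the 20055 IDs without the animal and for 9711 after cyclic loess. Gstt1, the theta class enzyme, differed by 0.01 on all animals, and Gstp1, the pi class enzyme, by -0.15 with its highest value in DIO replicate 3. The Gstp1 difference was -0.0076 without that animal and -0.29 without DIO replicate 2. Gsta2, an alpha class enzyme, was below the filter, with values from 0.83 to 2.33.

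**Figure D3:**
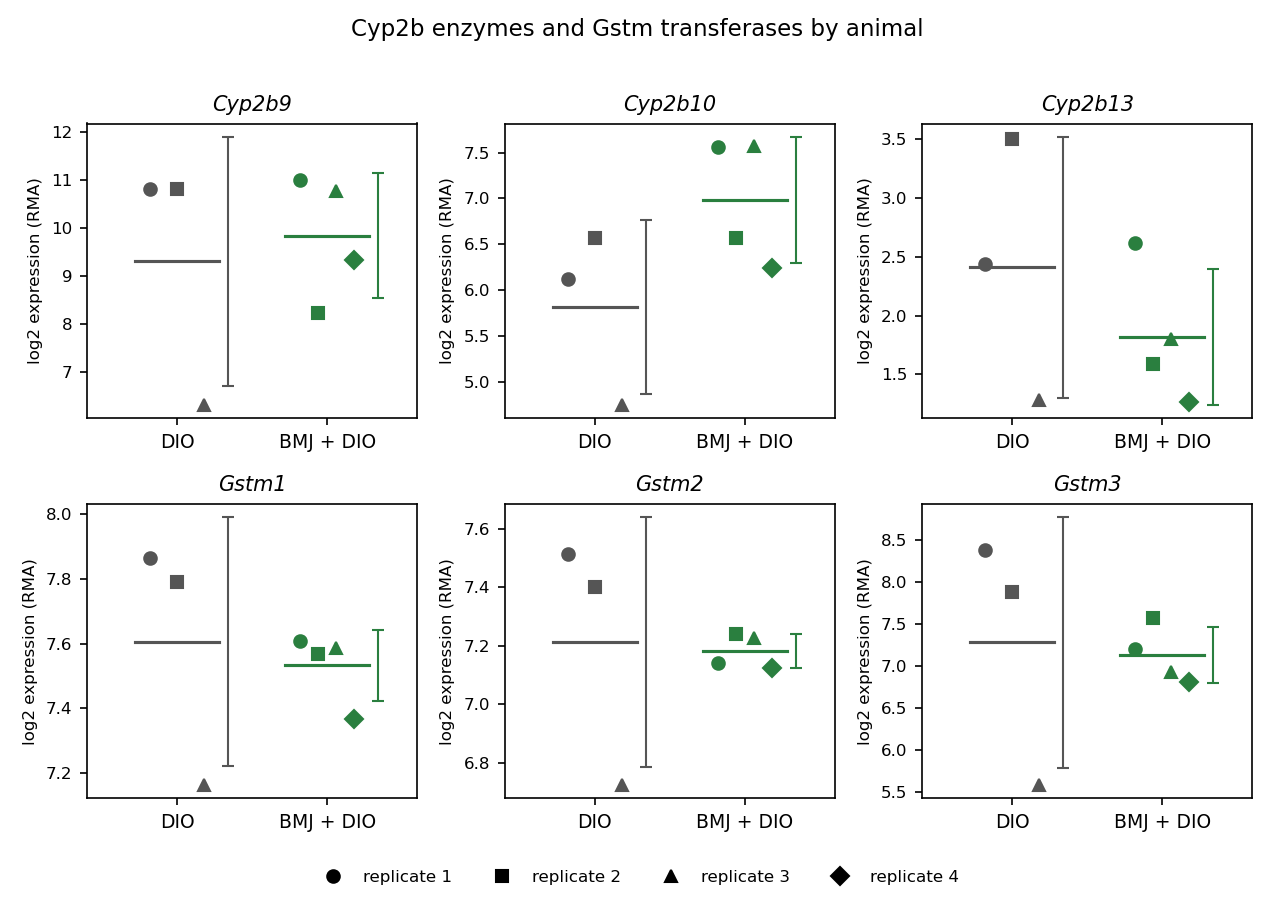
Log2 expression (RMA) of 3 Cyp2b and 3 Gstm genes in each animal, with markers, mean lines and SD bars as in the plot of receptors. The Cyp2b animals spread widely in both groups, and for the Gstm genes DIO replicate 3 lies below all treated livers while the other 2 controls lie above them (vertical axes differ and do not start at 0).

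Of the sulfotransferases, Sult1d1, which conjugates catecholamines and phenols, read 8.92, 8.28 and 7.41 in DIO and 9.23, 8.70, 9.52 and 9.54 in BMJ + DIO. One treated liver, replicate 2, lay below DIO replicate 1, and the rest were above all controls. The difference was 1.05 (2.06-fold, limma standard error 0.39, interval 0.08 to 2.01, unadjusted p = 0.0379, adjusted p = 0.571). It was 0.65 without DIO replicate 3 (limma, unadjusted p = 0.102) and 0.78 after cyclic loess (limma, unadjusted p = 0.0142). Leaving out DIO replicate 2 or BMJ + DIO replicate 1, 3 or 4 gave limma unadjusted p of 0.0791, 0.0732, 0.0889 and 0.0875. Its neighbour Sult1e1, the estrogen sulfotransferase, was below the filter, at 1.39, 1.62 and 1.41 in DIO and 1.64, 1.93, 1.76 and 1.62 in BMJ + DIO. The 2 genes lie side by side on chromosome 5, Sult1d1 at 87554650-87569006 and Sult1e1 at 87575968-87591611.

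DIO replicate 3 was the lowest animal for 25 of the 30 tested members, against 45.1% of all IDs tested and 83.5% of the bright ones. As 23 of the 30 members are bright, that count is near its background. The median deviation of DIO replicate 3 from each gene's 7-animal median was -0.72 over the members and -0.57 over the bright IDs. Of the 5 members not lowest in that animal, Nr1i3, Ces2a, Cyp2c54 and Cyp3a44 were lowest in DIO replicate 2 and Gstp1 in BMJ + DIO replicate 3. DIO replicate 1 was the highest animal for 13 members and BMJ + DIO replicate 3 for 11. The matching shares of all IDs were not computed, so these 2 counts are not read as particular to the members. The SD among controls exceeded that among treated animals in 27 of 30 members, against 72.4% of all IDs tested. The median SD of the members was 0.457 in DIO and 0.233 in BMJ + DIO, and 0.229 and 0.107 over all IDs tested. SDs of the bright IDs, to which 23 of the 30 members belong, were not summarised. Over the 30 tested members the median difference was 0.41, against 0.02 for all IDs tested. No median was computed for the bright IDs, of which 85.0% had a higher mean in BMJ + DIO. Without DIO replicate 3 the median difference of the members was 0.06, with 16 of 30 higher, beside 9501 of the 20055 IDs tested. After cyclic loess it was 0.16, with 18 of 30 higher, beside 9711 of the 20055 IDs. What sets DIO replicate 3 apart was not tested.

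**Figure D4:**
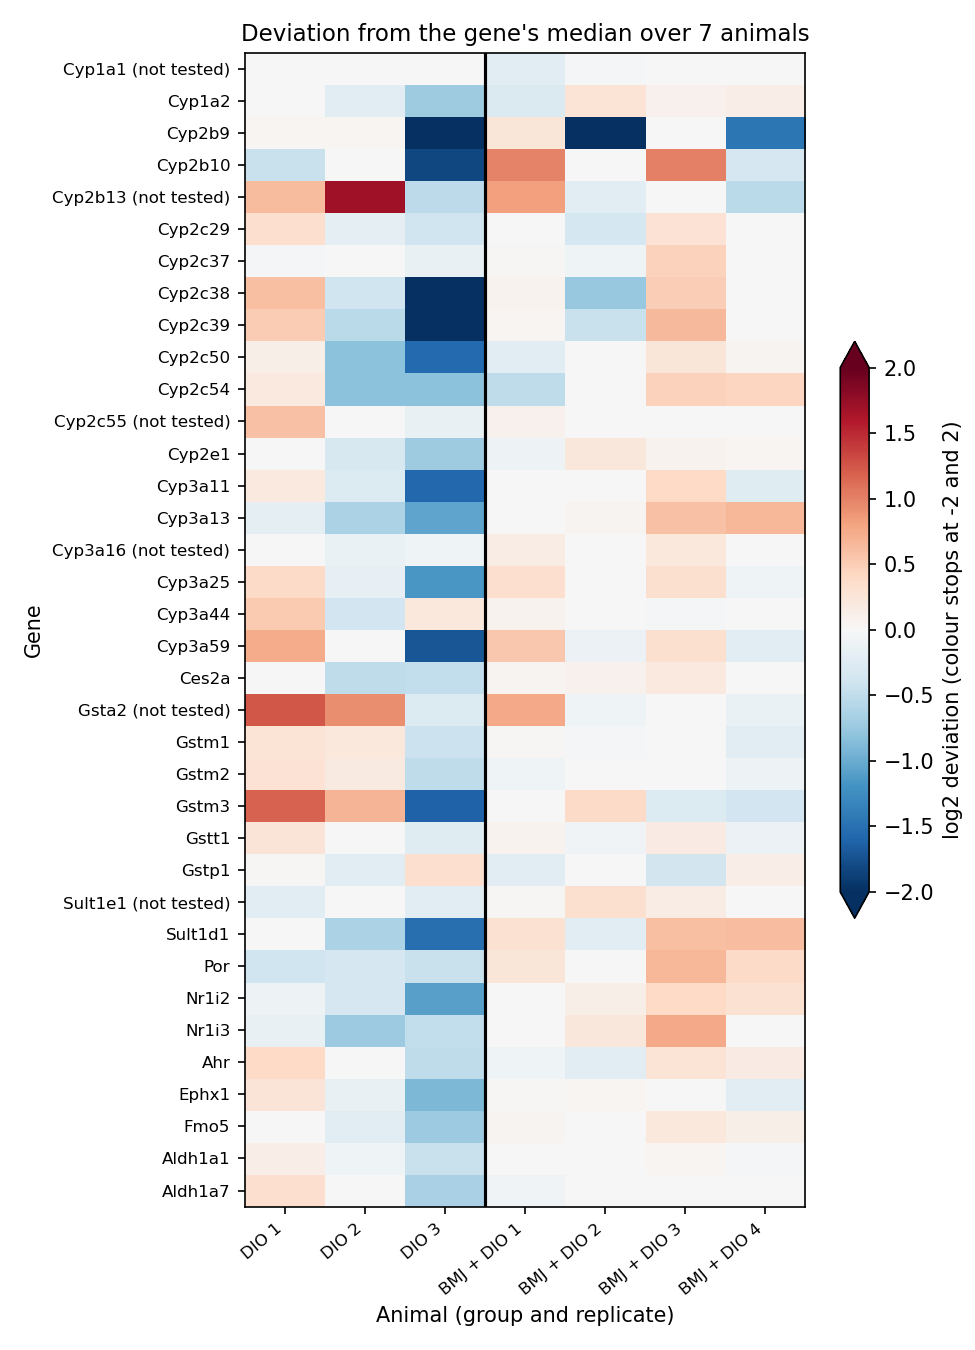
Log2 deviation of each animal from the gene's own median over 7 animals for the 36 genes in the table, red above and blue below, with DIO left of the black line and colours stopping at 2 on either side. The column of DIO replicate 3 is blue for most genes, and the rows of Por, Nr1i2, Nr1i3 and Cyp3a13 are blue in 3 controls.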

How the data were processed

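Biotinylated liver RNA was read on Affymetrix arrays, per the labels' protocols. The authors deposited log2 values, made with Affymetrix Power Tools and RMA against GRCm38 (mm10), per the submitters' processing notes. Sources used here do not give the array type, tool versions or probe grouping, so signals of near-identical paralogs (Cyp2b, Cyp2c, Cyp3a, Gstm) cannot be told apart with certainty. Groups and replicate numbers came from the sample titles. The members and all lists were chosen with earlier results of these data known. Symbols came with the member list, and positions and upstream sequences from RefSeq (GRCm38.p6), matched by symbol. The reference tables hold 0 Ensembl IDs, so the other pathway genes and cell type markers, listed by symbol, were not examined.

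IDs at or below the 40% point of the mean over all 7 arrays (log2 2.74) were left out, and 20055 were fitted with limma 3.58.1 in R 4.3.3 (lmFit and eBayes, group as the sole term, two-sided, Benjamini-Hochberg). The fit had 5 residual degrees of freedom. All 40 members are accounted for. Values in every array are given for members with an unadjusted p under 0.05, without overlap or at least 1.5-fold apart. They are also given for the receptors, for Por and for a head member of each family, except Cyp2a5, whose values were not analysed here. Cyp2b9, Gstm2 and Gstm3 were written out after their values were seen. The fit was also run on simulated arrays with independent noise, equal spread in both groups and no deviating array. That run does not show how the fit behaves on these arrays. Of the 36 members, 12 carry the same value in at least 2 arrays. Scan dates were not used here, so batches were not examined. Alternatives were no filter or a 60% filter, quantile normalization, cyclic loess, median centring, a trended robust variance, a replicate block and leaving out each array.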

Additional observations from a re-analysis of the deposited data

Results flagged for a closer look

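In the 4 treated livers, 6 of the 36 members had 1 animal whose gap to the next exceeded the 95% critical value of Dixon's test. By design about 1 in 20 groups of independent normal values passes it. The share of all IDs that pass it was not computed, so the 6 are not read as an excess. The lowest treated value stood apart for Cyp1a1 (1.82, replicate 1), Gstm1 (7.37, replicate 4), Ephx1 (9.57, replicate 4) and Aldh1a7 (8.36, replicate 1). The highest stood apart for Cyp2c55 (2.32, replicate 1) and Gsta2 (1.86, replicate 1). Cyp1a1, Cyp2c55 and Gsta2 are below the filter on low values, and the other treated livers hold the same value in 3 arrays for Cyp2c55 and in 2 for Aldh1a7. The rule was applied to the 4 treated livers only, and the 3 controls were not examined by it.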

How the results depend on the processing

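No member passed an adjusted p of 0.05 in any of the 14 alternatives (limma), where unadjusted counts were 1 to 12. The 6 members at an unadjusted p under 0.05, all higher, became 11 after quantile normalization (8 higher and 3 lower, beside 8.82% of all IDs tested) and 1, Por, with the replicate block (2.24%). Without 1 array they were 3 (without BMJ + DIO replicate 3, 2.76%) to 12 (without DIO replicate 1, 29.0%). Without the filter there were 7, with Sult1e1 added, beside 5.81% of all IDs. The 4 members without overlap became 7 after cyclic loess, 4 higher and 3 lower, beside 10.4% of all IDs, and Por and Nr1i3 were not among them. Without 1 array they were 4 (without BMJ + DIO replicate 3, 4.46% of all IDs) to 14 (without DIO replicate 1, 39.6%). The 5 members that also differed 1.5-fold were 2 after quantile normalization (beside 1.93% of all IDs), 2 after cyclic loess (1.75%) and 1 with the replicate block (0.868%). Without 1 array they were 2 (without BMJ + DIO replicate 3, 0.982%) to 9 (without DIO replicate 1, 10.4%). Leaving out 1 array put the median difference, 0.41, between 0.06 (DIO replicate 3 left out) and 0.58 (DIO replicate 1 left out). Por kept an unadjusted p under 0.05 in 14 of 14 alternatives, Cyp3a13 in 13, Nr1i2 and Ces2a in 10, Nr1i3 in 9 and Sult1d1 in 8, each in 1 direction throughout. Signs turned for 14 other tested members, with differences near 0 or carried by 1 array. After quantile normalization and cyclic loess they were -0.13 and -0.14 for Ahr, -0.13 and -0.21 for Cyp2c29, -0.091 and -0.12 for Cyp2c37, -0.24 and -0.27 for Gstt1, -0.047 and -0.051 for Ephx1, -0.11 and -0.15 for Aldh1a1, and -0.13 and -0.16 for Aldh1a7. Median centring turned Gstm2 to 0.017. Without 1 array differences ran from -0.16 to 0.29 for Ahr, -0.087 to 0.28 for Cyp2c29, -0.12 to 0.13 for Gstt1, -0.093 to 0.48 for Ephx1, -0.027 to 0.27 for Aldh1a1, -0.18 to 0.31 for Aldh1a7, -0.97 to 1.28 for Cyp2b9, -0.15 to 1.37 for Cyp2c38 and -0.24 to 0.99 for Cyp3a59. They ran from -0.29 to 0.055 for Gstm1, -0.27 to 0.12 for Gstm2, -1.0 to 0.40 for Gstm3 and -0.36 to 0.094 for Cyp3a44, which the 60% filter removed. Deviations of animals with equal numbers correlated at -0.355, -0.090 and -0.296 over the IDs tested, so the replicate number was not taken as a pairing, and the block also drops the treated animal without a same-numbered control. Other causes were not tested. Signal over background was not examined here, which limits what the dim members show.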
